A study of Homo sapiens with 15 samples.

Results

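The secreted phospholipases A2 of the group II cluster were followed through a knockdown experiment in LNCaP cells, an established line of human prostate cancer. The cluster genes are PLA2G2A, PLA2G2F, PLA2G2C, PLA2G2D, PLA2G2E and PLA2G5, taken by name from the deposited table, which makes 6 genes of 26443 with values. They were picked with the levels in these same libraries known, so their levels and the differences between groups are given as a description without a test. Tests are given for 6 of 12 genes that flank the cluster and for 55 of 109 genes in pathway lists. The others were under a filter on low values. The pathway lists cover lipid pathways, NF-kB signalling and the acute phase. Both sets were also listed with earlier results of these data known, so their p values do not account for that choice.

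All cells were LNCaP with the genotype label WT, grown in RPMI medium with 10% FBS and infected with a lentivirus 4 to 5 days before RNA was taken. The groups were shPALI1, shG9a, shJarid2 and shsuz12, each with 1 hairpin name against the gene it is called after, and the control vector pLKO, with 3 libraries per group and 15 in all. JARID2 and SUZ12 are subunits of PRC2, which methylates lysine 27 of histone H3, PALI1 is a protein that associates with PRC2, and G9a, made from EHMT2, methylates lysine 9 of histone H3. By its title, the study concerns PALI1, PRC2 and chromatin on which G9a acts.

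Secreted phospholipases A2 are small, disulfide-rich enzymes that need calcium and cut the fatty acid from the middle position of a phospholipid outside the cell. The products are a free fatty acid, which can be arachidonic acid and so feed prostaglandins and leukotrienes, and a lysophospholipid. PLA2G2A, the group IIA enzyme, kills Gram-positive bacteria, is released by Paneth cells of the gut and in the acute-phase response, and has long been measured in prostate tumours.

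The 6 genes stand side by side on chromosome 1 of GRCh38, from 19920009 to 20177424 in the GENCODE v29 annotation, a span of 257.4 kb. In map order they are PLA2G2E, PLA2G2A, PLA2G5, PLA2G2D, PLA2G2F and PLA2G2C. PLA2G5 and PLA2G2F lie on the plus strand and the other 4 on the minus strand. PLA2G2A itself runs from 19975431 to 19980416, PLA2G5 from 20028179 to 20091190 and PLA2G2F from 20139326 to 20150386. No exon of the 6 genes overlaps an exon of another gene in that annotation. Of the 31-base words in their transcripts, PLA2G2E and PLA2G2F shared 3 with each other, and 0.279% of the words of PLA2G2A occurred in transcripts of genes outside the cluster.

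The 250 bases before the start site are shown for the 3 cluster genes with reads in every library and for PLA2G2E, a neighbour with almost none, so that their base composition can be compared. They are the RefSeq sequences of GRCh38.p14, written 5′ to 3′ on the strand of the gene, and capitals mark each CG dinucleotide, the site of DNA methylation. The windows are chr1:19979619-19979868 (minus strand) for PLA2G2A, chr1:20139073-20139322 (plus strand) for PLA2G2F, chr1:20069944-20070193 (plus strand) for PLA2G5 and chr1:19923618-19923867 (minus strand) for PLA2G2E. PLA2G2A has 3 listed start sites, of which the one farthest downstream is shown. Its window lies inside the longer GENCODE gene, whose start at 19980416 is the point from which distances are given below. The RefSeq start of PLA2G5 also lies inside the longer GENCODE gene.
PLA2G2A: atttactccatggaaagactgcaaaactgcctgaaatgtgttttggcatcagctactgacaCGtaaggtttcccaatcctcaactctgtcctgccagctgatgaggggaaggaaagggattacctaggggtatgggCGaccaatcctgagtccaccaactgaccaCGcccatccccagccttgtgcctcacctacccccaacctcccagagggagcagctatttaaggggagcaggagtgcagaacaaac
PLA2G2F: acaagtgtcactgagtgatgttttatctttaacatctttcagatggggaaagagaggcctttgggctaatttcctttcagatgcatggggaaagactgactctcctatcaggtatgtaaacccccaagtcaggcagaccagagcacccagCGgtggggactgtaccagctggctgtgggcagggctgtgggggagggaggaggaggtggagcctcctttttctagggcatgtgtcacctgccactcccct
PLA2G5: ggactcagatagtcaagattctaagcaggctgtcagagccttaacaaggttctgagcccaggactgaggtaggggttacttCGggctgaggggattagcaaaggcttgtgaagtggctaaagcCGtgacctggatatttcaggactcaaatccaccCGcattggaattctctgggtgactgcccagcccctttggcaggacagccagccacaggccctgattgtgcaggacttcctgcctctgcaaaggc
PLA2G2E: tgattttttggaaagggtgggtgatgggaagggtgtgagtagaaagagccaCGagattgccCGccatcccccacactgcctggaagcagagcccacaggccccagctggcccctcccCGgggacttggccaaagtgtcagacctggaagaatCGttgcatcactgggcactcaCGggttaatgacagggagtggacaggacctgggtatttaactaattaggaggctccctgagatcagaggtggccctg

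All 4 windows held fewer CG dinucleotides than the median promoter. PLA2G2F had 1 CG dinucleotide, PLA2G2A 3, PLA2G5 3 and PLA2G2E 5, where the median over 35116 RefSeq promoter windows of the same length was 11, with quartiles of 3 and 23. The windows of the other start sites of PLA2G2A held 4 and 2. PLA2G2C also had 5, but its RefSeq start lies outside the GENCODE gene and its window is not shown. Low CG content was thus shared by genes with many reads and genes with almost none. Among the flanking genes, VWA5B1 had 6, OTUD3 15 and UBXN10 21.

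**Figure D1:**
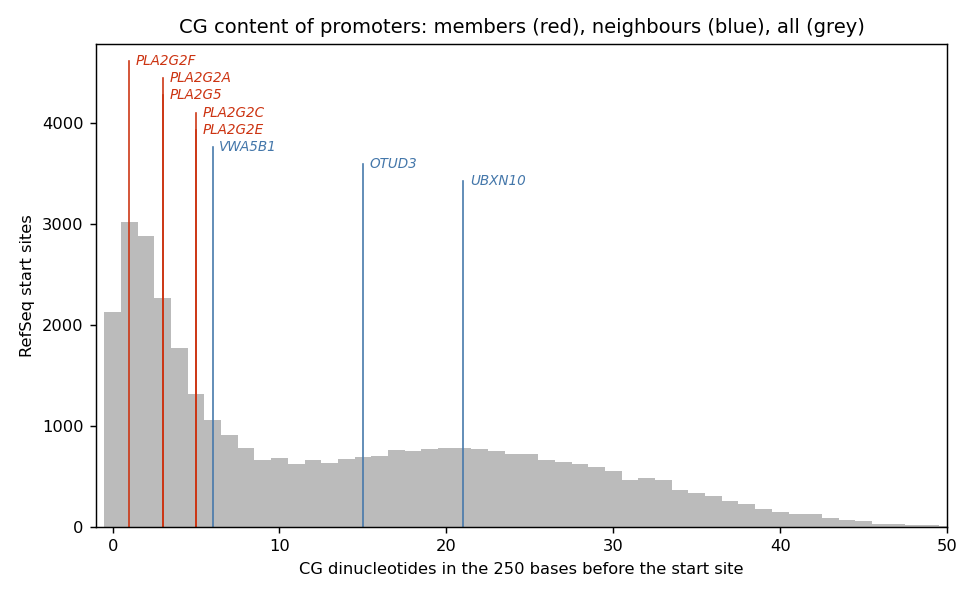
Number of CG dinucleotides in the 250 bases before the start site (x axis) for 35116 RefSeq promoter windows (grey bars, y axis in start sites), with cluster genes in red and flanking genes in blue. The 5 cluster genes with a listed window sit between 1 and 5, on the left of the distribution, while OTUD3 and UBXN10 stand at 15 and 21.

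Both strands of the windows were also searched for short letter patterns. TATTTA began 31 bases before the start of PLA2G2A and 44 bases before the start of PLA2G2E, and 11.7% of all promoter windows hold it. CCAAT was found at 178 and 111 bases in PLA2G2A and at 91 bases in PLA2G5, a pattern held by 32% of windows. AGAACA, a single arm of the androgen response element, began 9 bases before the start of PLA2G2A and is present in 12.4% of windows. TATAAA, present in 10.7% of windows, and TGANTCA, present in 6.57%, were not among the letters of any of the 5 cluster windows. No pattern overlapped another in the PLA2G2A window. PLA2G2F held none of these 5 patterns in its window. The matches describe the letters and were not set against binding data.

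Depth, recovered from the steps in which RPKM values move, was 10.56 to 19.36 M reads per library. Each hairpin lowered its own target: C10orf12, which is part of PALI1, was at 23.8% of the pLKO mean in shPALI1, EHMT2 at 25.7% in shG9a, JARID2 at 18.3% in shJarid2 and SUZ12 at 12.6% in shsuz12. Targets of other hairpins also passed: EHMT2 fell by 0.37 in shJarid2 and by 0.24 in shsuz12, and JARID2 rose by 0.45 in shsuz12 (limma, adjusted p = 0.00099, 0.015 and 0.00022), and the other 9 such tests did not pass. All 8 luminal prostate markers averaged at least 1 RPKM in every group, and their summed level was 829 to 936 RPKM in shPALI1, 1012 to 1071 in shG9a, 1570 to 1829 in shJarid2, 1260 to 1353 in shsuz12 and 1994 to 2210 in pLKO. Of 6 Paneth and intestinal markers, 0 reached 1 RPKM in any group, and DEFA5 and REG3A were at 0 in all 15 libraries. Of 6 immune markers CD68 alone reached that level and CD3E was at 0 throughout, and their sum was 4.20 to 4.79 RPKM in shPALI1, 2.59 to 3.41 in shG9a, 3.52 to 4.98 in shJarid2, 2.22 to 2.79 in shsuz12 and 2.32 to 3.30 in pLKO. CD68 rose by 0.46 in shPALI1 and by 0.45 in shJarid2 (limma, adjusted p = 0.011 for each). Of 5 fibroblast markers 1 or 2 reached 1 RPKM, and their sum was 5.12 to 5.52 RPKM in shPALI1, 5.06 to 6.02 in shG9a, 1.76 to 2.29 in shJarid2, 4.87 to 5.36 in shsuz12 and 4.38 to 5.11 in pLKO. The collagen gene COL1A1 fell by 1.20 in shJarid2 and by 0.41 in shPALI1 (limma, adjusted p = 2.5e-07 and 0.0039), while COL3A1, another collagen gene, averaged 2.02 RPKM in shPALI1, 0.611 in shG9a, 0.680 in shJarid2, 0.133 in shsuz12 and 0.279 in pLKO. The part of these marker levels in the results below was not tested, and a change in the share of cells that make a transcript cannot be told apart from a change in its amount per cell. Replicate 3 of shJarid2 had the highest column sum of the series, at 318754 RPKM against 250161 to 293663 in the others, so the shJarid2 means of the cluster genes and of CAMK2N1, and the counts of tested genes that passed in shJarid2, are given with and without it.

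PLA2G2A was the most abundant transcript of the cluster in all 15 libraries, and it was higher in shG9a, shsuz12 and shJarid2 than in pLKO. It stood at 21.7, 15.4 and 19.4 RPKM in the 3 shPALI1 libraries, at 45.1, 44.1 and 49.4 in shG9a, at 291.5, 290.6 and 458.9 in shJarid2, at 86.3, 93.7 and 93.1 in shsuz12, and at 18.0, 17.4 and 12.3 in pLKO. The shG9a, shsuz12 and shJarid2 libraries all lay above the 3 pLKO libraries, and those of shPALI1 overlapped them. The means were 18.8 ± 3.2 RPKM in shPALI1, 46.2 ± 2.8 in shG9a, 347 ± 97 in shJarid2, 91.0 ± 4.1 in shsuz12 and 15.9 ± 3.1 in pLKO (SD, n = 3 each). That is 2.9 times the pLKO mean in shG9a, 5.72 times in shsuz12 and 21.8 times in shJarid2. From high to low the groups ran shJarid2, shsuz12, shG9a, shPALI1 and pLKO, and each neighbouring pair was free of overlap except shPALI1 and pLKO.

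The number of reads behind these levels was large. At the 1032-base gene model that the values imply, PLA2G2A held 729 reads in shPALI1, 2054 in shG9a, 15067 in shJarid2, 4188 in shsuz12 and 664 in pLKO. The difference from pLKO on the log2(RPKM + 1) scale was 0.23 in shPALI1, 1.50 in shG9a, 4.35 in shJarid2 and 2.46 in shsuz12 (SE 0.18 for each). Counted from the most abundant gene, PLA2G2A ranked 84, 88 and 62 among all genes with values in the shJarid2 libraries and 3527, 3615 and 4709 in the pLKO libraries. In shsuz12 it ranked between 396 and 419, in shG9a between 1013 and 1215, and in shPALI1 between 2685 and 3797. Without replicate 3 of shJarid2 the mean there was 291 RPKM, or 18.3 times the pLKO mean. The 4 comparisons share the pLKO libraries and are therefore not independent of each other.

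PLA2G2F, an enzyme best known from the epidermis, where keratinocytes secrete it, was near 0 in pLKO and high in shJarid2. Its levels were 0.0697, 0.0802 and 0.0536 RPKM in shPALI1, 0.810, 0.774 and 1.10 in shG9a, 8.55, 9.55 and 13.2 in shJarid2, 0.266, 0.218 and 0.428 in shsuz12, and 0.119, 0.300 and 0.0947 in pLKO. The shG9a and shJarid2 libraries lay above pLKO, those of shPALI1 lay below it, and those of shsuz12 overlapped it. The highest shPALI1 library and the lowest pLKO library held 3 reads each, and their RPKM differed through depth alone. Nothing is therefore read from the gap between shPALI1 and pLKO. Group means were 0.0678 ± 0.013 RPKM in shPALI1, 0.896 ± 0.18 in shG9a, 10.4 ± 2.4 in shJarid2, 0.304 ± 0.11 in shsuz12 and 0.171 ± 0.11 in pLKO (SD, n = 3 each). The shJarid2 mean was 60.8 times that of pLKO, and 52.9 times without replicate 3.

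These ratios of PLA2G2F rest on few reads in the low groups. The 3 libraries together held 7 reads in shPALI1, 105 in shG9a, 1195 in shJarid2, 36 in shsuz12 and 20 in pLKO. On the log2(RPKM + 1) scale the differences from pLKO were -0.13 in shPALI1, 0.69 in shG9a, 3.27 in shJarid2 and 0.16 in shsuz12 (SE 0.13 for each). With 0.1 added in place of 1 they were -0.62, 1.94, 5.33 and 0.62 in the same order. The order of the groups was shJarid2, shG9a, shsuz12, pLKO and shPALI1, with overlap in RPKM between shsuz12 and pLKO alone. In reads per library shPALI1 and pLKO overlapped as well. PLA2G2F thus stood higher in shG9a than in shsuz12, while PLA2G2A stood higher in shsuz12 than in shG9a, in each case without overlap of the libraries.

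PLA2G5, an enzyme known from macrophages and heart muscle, stayed under 1 RPKM outside shJarid2. It was at 0.250, 0.115 and 0.192 RPKM in shPALI1, at 0.620, 0.764 and 0.700 in shG9a, at 2.60, 2.08 and 3.35 in shJarid2, at 0.818, 0.859 and 0.570 in shsuz12, and at 0.769, 0.762 and 0.816 in pLKO. The shJarid2 libraries were above pLKO, the shPALI1 libraries were below it, and the shG9a and shsuz12 libraries overlapped it. The means were 0.186 ± 0.068 RPKM in shPALI1, 0.695 ± 0.072 in shG9a, 2.68 ± 0.64 in shJarid2, 0.749 ± 0.16 in shsuz12 and 0.782 ± 0.029 in pLKO (SD, n = 3 each). The differences on the log2(RPKM + 1) scale were -0.59, -0.07, 1.03 and -0.03 for shPALI1, shG9a, shJarid2 and shsuz12 against pLKO (SE 0.11 for each). The sign in shsuz12 was not stable, at 0.01 with median ratio scaling, 0.04 with TPM and 0.04 without replicate 3 of shsuz12. With 0.1 added the differences were -1.65 in shPALI1 and 1.63 in shJarid2.

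PLA2G5 stood at 23.8% of the pLKO mean in shPALI1, with 13 reads there and 59 reads in pLKO. In shJarid2 the gene held 215 reads and stood at 3.42 times the pLKO mean, or 2.99 times without replicate 3. The group order ran shJarid2, pLKO, shsuz12, shG9a and shPALI1. Its middle groups overlapped each other, and shJarid2 and shPALI1 stood clear at either end.

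**Figure D2:**
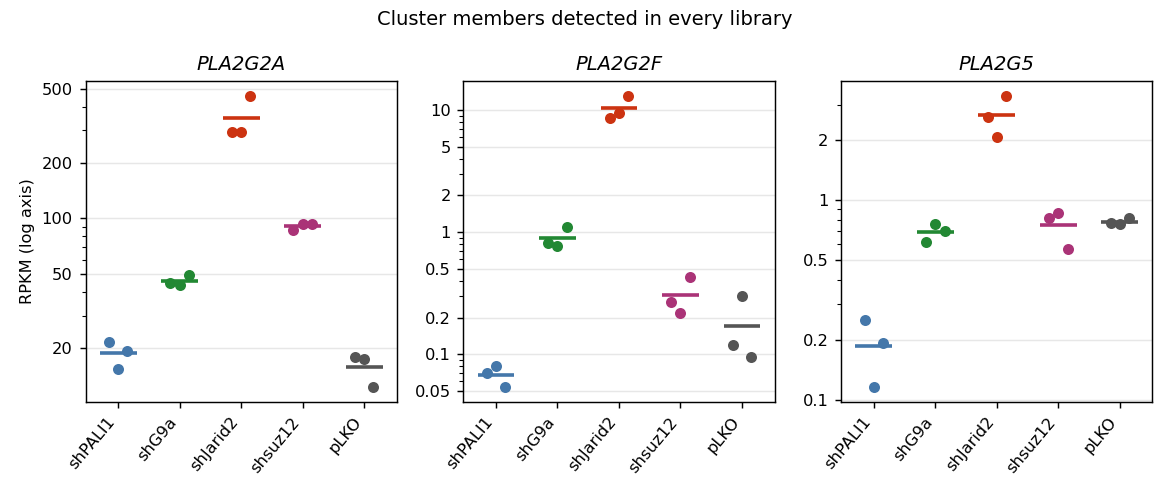
RPKM on a log axis (y) in each of the 15 libraries (points) by group (x), with a line at the group mean, for the 3 cluster genes with reads in every library. PLA2G2A shows 4 separate steps from pLKO and shPALI1 up to shJarid2, PLA2G2F is above 8 RPKM in shJarid2 and at most 1.10 elsewhere, and PLA2G5 is lowest in shPALI1.

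PLA2G2D, PLA2G2C and PLA2G2E were silent or nearly so. PLA2G2D, an enzyme of dendritic cells in lymphoid tissue, had 1, 2 and 1 reads in the 3 shJarid2 libraries, which is 0.0642, 0.138 and 0.0815 RPKM, and was at 0 in the 12 others. PLA2G2C, known mainly from rodents, had 2 reads in replicate 2 of shJarid2, or 0.300 RPKM, and was at 0 in the rest. PLA2G2E, which in the mouse is made by fat cells and hair follicles, had 1 read in replicate 1 of shJarid2, or 0.130 RPKM. The few reads of these 3 genes all came from shJarid2 libraries. A level worth 3 reads would have been 0.157 to 0.288 RPKM for PLA2G2D, 0.342 to 0.627 for PLA2G2C and 0.318 to 0.583 for PLA2G2E, depending on the library, so lower levels were not detectable at this depth. Every value of the 3 genes was below that limit in its own library, and no ratio is given. These limits cover counting error alone.

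Counted over the 6 genes, those whose libraries did not overlap pLKO were 0 higher and 2 lower in shPALI1. These were PLA2G5 and PLA2G2F, the latter with 7 reads in shPALI1. In shG9a 2 were higher and 0 lower (PLA2G2A and PLA2G2F). In shJarid2 4 were higher, PLA2G2D with its 4 reads among them, and in shsuz12 PLA2G2A alone was higher. Over the 12715 genes that passed the filter on low values, the libraries lay wholly above pLKO for 21.9% in shPALI1, 25.1% in shG9a, 23.4% in shJarid2 and 25.1% in shsuz12. They lay wholly below pLKO for 32.6%, 33.2%, 27.8% and 38% in the same order. PLA2G2A, PLA2G2F and PLA2G5 passed that filter, which asks for 3 or more libraries at 1 RPKM or above, and PLA2G2F and PLA2G5 did so through the shJarid2 libraries, so nothing is read from these shares.

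PLA2G2A made up most of the cluster's RPKM in every library, but the balance with its neighbours differed between groups. Its share of the summed RPKM of the 6 genes was 98.6% to 98.8% in shPALI1, 96.5% to 96.9% in shG9a, 96.0% to 96.5% in shJarid2, 98.8% to 98.9% in shsuz12 and 93.1% to 95.3% in pLKO. The level of PLA2G2A over that of PLA2G2F was 192 to 362 in shPALI1, 44.7 to 56.9 in shG9a, 30.4 to 34.9 in shJarid2, 218 to 430 in shsuz12 and 58.0 to 152 in pLKO. PLA2G2F was thus closest to PLA2G2A in shJarid2. The shG9a libraries also lay below those of pLKO, but narrowly, with 56.9 as the highest against 58.0 as the lowest. The pLKO ratios rest on 4, 13 and 3 reads of PLA2G2F. Over PLA2G5, PLA2G2A was 86.6 to 133 times as abundant in shPALI1, 57.6 to 72.6 times in shG9a, 112 to 140 times in shJarid2, 106 to 163 times in shsuz12 and 15.1 to 23.5 times in pLKO. All 12 knockdown libraries lay above the pLKO libraries in this ratio, in shPALI1 with a lower PLA2G5 and a PLA2G2A level that overlapped pLKO.

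The flanking genes were tested to see where the differences ended. In map order NBL1, HTR6, TMCO4, RNF186 and OTUD3 precede the cluster, and UBXN10, VWA5B1, CAMK2N1, MUL1, FAM43B, CDA and PINK1 follow it. TMCO4, OTUD3, VWA5B1, CAMK2N1, MUL1 and PINK1 passed the filter, and the rest were under it. In limma, with Benjamini-Hochberg adjustment over all 12715 genes, 4 of the 6 fell in shPALI1, 2 rose and 1 fell in shG9a, 4 rose in shJarid2, and 2 rose and 1 fell in shsuz12, and the others did not pass. VWA5B1 is among the 4 in shJarid2, although it passed the filter through those libraries alone. Without replicate 3 of shJarid2, 4 rose and 1 fell there, with the call of TMCO4 lost and calls of OTUD3 and MUL1 gained. Over all tested genes 41.6% passed in shPALI1, 43.1% in shG9a, 51% in shJarid2 and 53.9% in shsuz12.

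OTUD3, a deubiquitinating enzyme whose start site lies 97.9 kb from that of PLA2G2A on the side of PLA2G2E, did not pass in any comparison. Its libraries still lay above those of pLKO in shPALI1, shG9a and shsuz12, and overlapped them in shJarid2. It averaged 5.57 RPKM in shPALI1, 5.87 in shG9a, 5.75 in shJarid2, 5.66 in shsuz12 and 5.07 in pLKO, and the limma log2 changes were 0.11, 0.18, 0.14 and 0.13 with adjusted p of 0.38, 0.16, 0.26 and 0.28. Without replicate 3 of shJarid2 the change in shJarid2 was 0.25 and passed (adjusted p = 0.0209 in limma, with 0.0209 to 0.847 over the alternatives). TMCO4, a transmembrane protein farther out on that side, fell by 0.26 in shPALI1 (limma, adjusted p = 0.021) and rose by 0.22 in shJarid2 (adjusted p = 0.04). The calls of TMCO4 were lost in 3 of 15 alternatives in shPALI1, without replicate 3 of shPALI1 or replicate 1 of pLKO among them, and in 7 of 15 in shJarid2, without replicate 1 or 3 of shJarid2 or replicate 2 or 3 of pLKO among them. The adjusted p of TMCO4 ran from 0.0108 to 0.0944 over the alternatives in shPALI1 and from 0.00878 to 0.153 in shJarid2.

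VWA5B1, a protein with a von Willebrand factor A domain, is the first tested gene on the far side, 310.5 kb from PLA2G2A. It was at 0.0635, 0.0325 and 0.0977 RPKM in shPALI1, 0.492, 0.265 and 0.359 in shG9a, 2.39, 1.69 and 1.19 in shJarid2, 0.866, 0.645 and 0.928 in shsuz12, and 0.0181, 0.0982 and 0.0767 in pLKO. The shG9a, shsuz12 and shJarid2 libraries lay above pLKO in rising order, and shPALI1 overlapped it. VWA5B1 reached 1 RPKM in the shJarid2 libraries alone, so its difference of 1.35 ± 0.14 (SE) on the log2(RPKM + 1) scale there is a description with no test. VWA5B1 rose by 0.77 ± 0.14 in shsuz12 (limma, adjusted p = 0.00035). In shG9a the rise of 0.36 was at the threshold (adjusted p = 0.047) and was lost in 9 of 14 alternatives, without any 1 of the 6 libraries among them, over which the adjusted p was 0.00361 to 0.151. The 3 pLKO libraries held 12 reads of it in all.

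CAMK2N1, which inhibits the calcium/calmodulin-dependent kinase II, lies farther out still, with its start site 505.8 kb from that of PLA2G2A. Its RPKM was 21.6, 22.2 and 25.4 in shPALI1, 60.7, 52.1 and 55.1 in shG9a, 305.1, 322.3 and 387 in shJarid2, 121, 112 and 112 in shsuz12, and 37.1, 32.8 and 28.1 in pLKO. No library of a knockdown overlapped pLKO, with shPALI1 below it and the other 3 groups above it in the order shG9a, shsuz12 and shJarid2. In limma it rose by 3.33 ± 0.11 in shJarid2 (adjusted p = 1.3e-10), by 1.79 ± 0.11 in shsuz12 (adjusted p = 1.8e-08) and by 0.76 ± 0.11 in shG9a (adjusted p = 7.2e-05). It fell by 0.48 ± 0.11 in shPALI1 (adjusted p = 0.0029). The mean of CAMK2N1 in shJarid2 was 10.4 times that of pLKO, and 9.6 times without replicate 3.

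**Figure D3:**
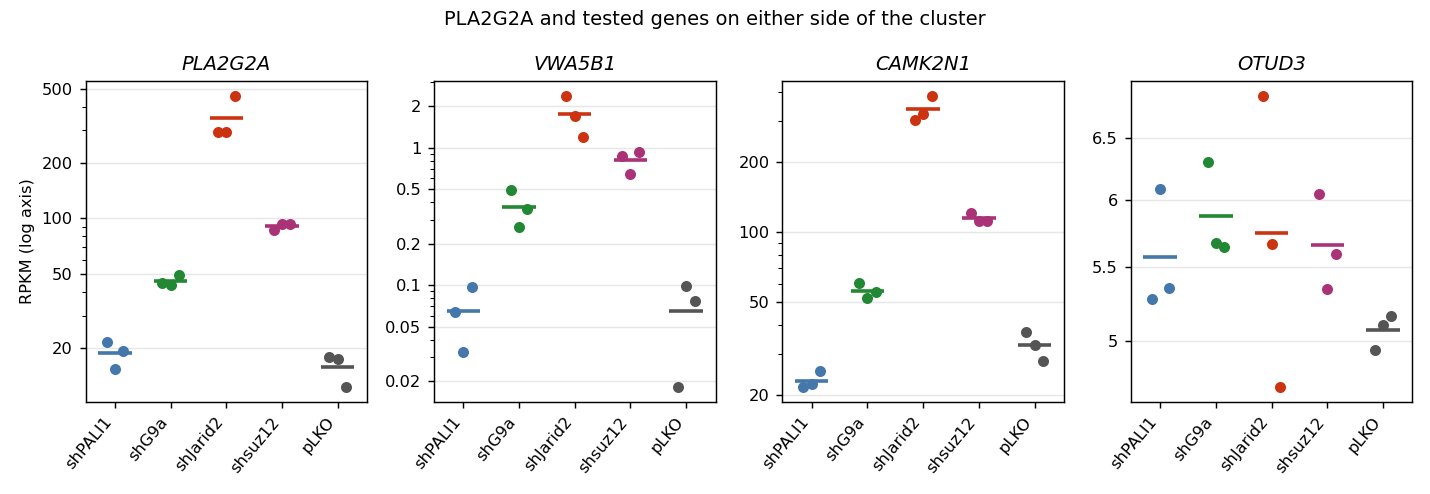
RPKM on a log axis (y) in each of the 15 libraries (points) by group (x), with a line at the group mean, for PLA2G2A and 3 flanking genes. PLA2G2A, VWA5B1 and CAMK2N1 rank shG9a, shsuz12 and shJarid2 in the same rising order above pLKO, while OTUD3 stays between 4.71 and 6.87 RPKM.

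MUL1, a mitochondrial ubiquitin ligase that stands next to CAMK2N1, fell by 0.52 in shPALI1 (limma, adjusted p = 0.0015). Its log2 changes were 0.05 in shG9a, -0.13 in shJarid2 and 0.03 in shsuz12, none of which passed (adjusted p = 0.74, 0.32 and 0.82). Without replicate 3 of shJarid2 the MUL1 change there was -0.25 and passed (limma adjusted p = 0.0443, in a range of 0.0443 to 0.726 over the alternatives). PINK1, the kinase that marks damaged mitochondria, fell in shPALI1 by 0.75, in shG9a by 0.53 and in shsuz12 by 1.04 (limma, adjusted p = 0.00013, 0.0018 and 3.6e-06). PINK1 rose by 0.41 in shJarid2 (adjusted p = 0.0074), a call that was lost in a model of the 6 libraries alone (0.0526, with 0.000752 to 0.0526 over the alternatives). PINK1 has an antisense partner whose exons overlap its own, and the sources do not say whether strand was used in counting.

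The flanking genes under the filter were low in every group. UBXN10, a protein of the cilium, borders PLA2G2C and was at 0.0604 ± 0.040 RPKM in shPALI1, 0.0909 ± 0.024 in shG9a, 0.516 ± 0.078 in shJarid2, 0.122 ± 0.025 in shsuz12 and 0 in all 3 pLKO libraries (SD, n = 3 each). It held 125 reads in shJarid2 and 0 in pLKO. HTR6, a serotonin receptor, averaged 0.539 RPKM in shPALI1, 0.209 in shG9a, 0.340 in shJarid2, 0.607 in shsuz12 and 0.415 in pLKO. NBL1, RNF186, FAM43B and CDA averaged under 0.08 RPKM in every group, and NBL1 shares exons with other annotated genes. Chosen after their values were seen, the noncoding genes UBXN10-AS1 and LINC01141 of the same stretch averaged 0.183 and 0.0998 RPKM in shJarid2, against 0 and 0.0227 in pLKO.

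**Figure D4:**
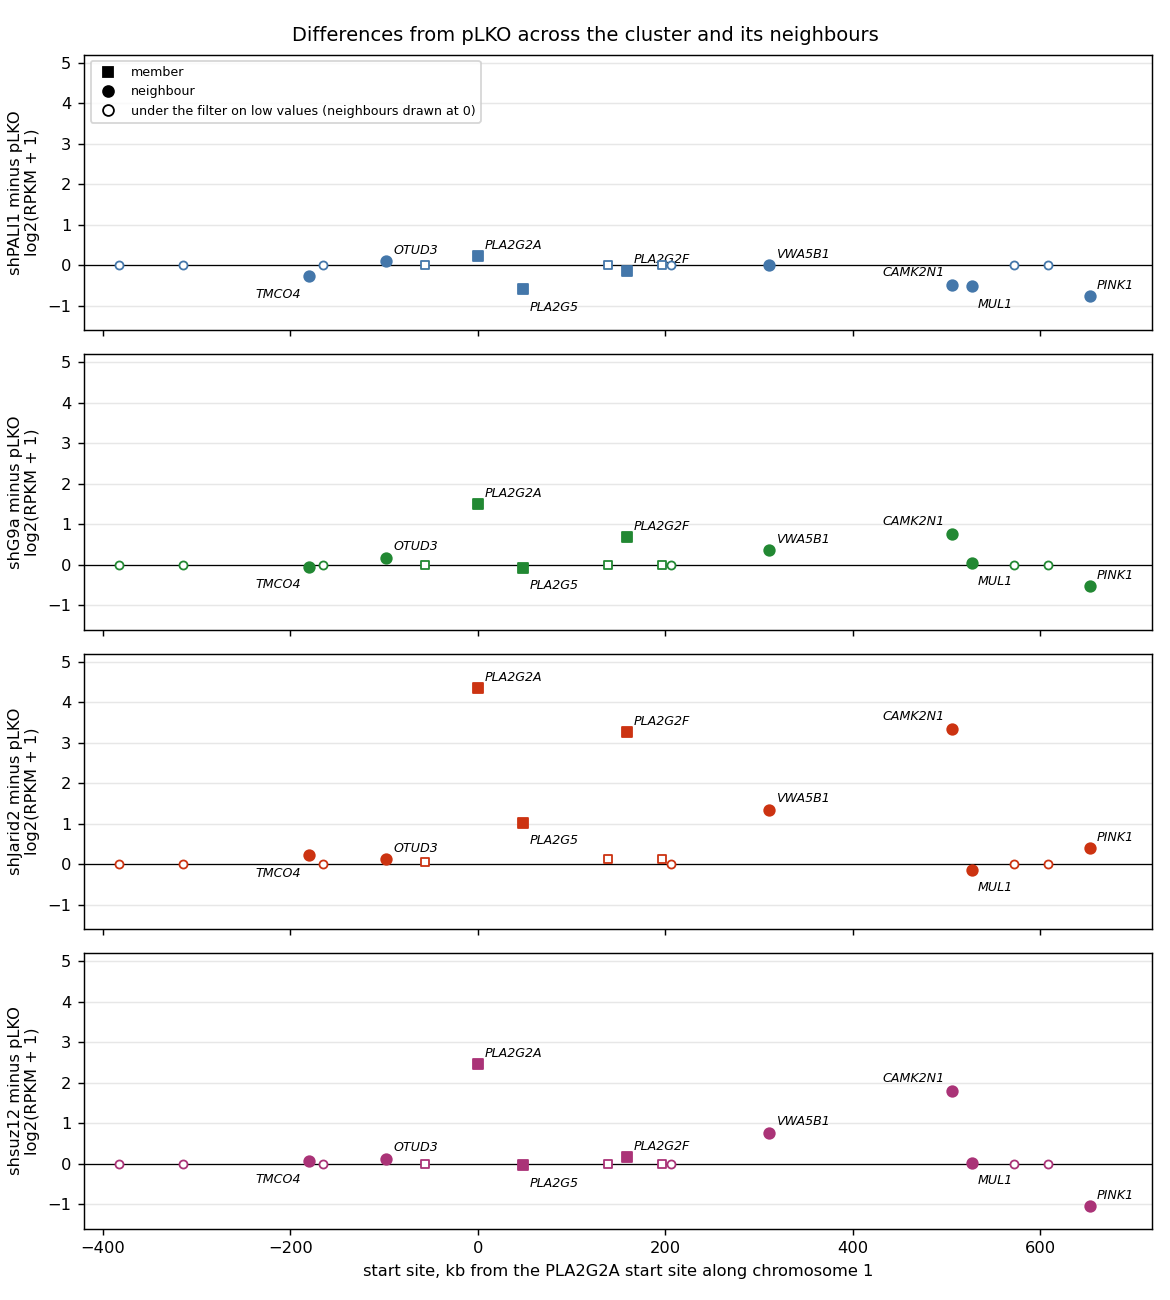
Difference from pLKO in log2(RPKM + 1) (y) against the start site in kb from that of PLA2G2A along the chromosome (x), with 1 panel per knockdown, squares for cluster genes, circles for flanking genes and open marks for genes under the filter on low values. In shJarid2 PLA2G2A, PLA2G2F and CAMK2N1 stand at 4.35, 3.27 and 3.33, while OTUD3, beside the cluster, and MUL1, beside CAMK2N1, stand at 0.14 and -0.13.

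Across the whole table the genes most like each cluster gene were ranked by Pearson's r over the 15 libraries in log2(RPKM + 1), as a description with no test. The 15 points fall into 5 groups that share their cells and vector, so r mainly follows the order of the groups. For PLA2G2A the highest of 12714 genes was CAMK2N1 at 0.982, followed by PPARD at 0.975, a nuclear receptor for fatty acids, then WIZ at 0.973, a zinc finger partner of G9a, DAP at 0.971 and GLB1L2 at 0.970. PPARD averaged 4.67 RPKM in shPALI1, 8.21 in shG9a, 19.1 in shJarid2, 9.66 in shsuz12 and 5.03 in pLKO. The lowest were AHNAK2 at -0.986, WDR43 at -0.985 and USP1 at -0.974. AHNAK2 averaged 0.147 RPKM in shJarid2 and 1.51 in pLKO, so it ran opposite to PLA2G2A.

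PLA2G2F and PLA2G5 had other closest genes. For PLA2G2F they were CRYAB at 0.984, a small heat shock protein, THRSP at 0.981, AKTIP at 0.979, GDPD1 at 0.978 and SLC9A3R1 at 0.976, and the lowest were C6orf120 and CBX1 at -0.985 and CPSF2 at -0.979. CRYAB averaged 4.89 RPKM in shJarid2 and 0.601 in pLKO. For PLA2G5 they were MMP7 at 0.973, a secreted metalloproteinase, CAPN2 and KLHL1 at 0.970, and SIRT2 and TMEM45B at 0.968, and the lowest were EIF4G2 at -0.967, and MEX3A and LOC100506548 at -0.966. MMP7 averaged 0.249 RPKM in shPALI1, 1.18 in shG9a, 8.47 in shJarid2, 1.71 in shsuz12 and 1.31 in pLKO, low in shPALI1 and high in shJarid2 as PLA2G5 was. Among the cluster genes r was 0.869 between PLA2G2A and PLA2G2F, 0.843 between PLA2G2A and PLA2G5 and 0.916 between PLA2G2F and PLA2G5, which ranked 235, 345 and 116 among 12714 genes. VWA5B1 correlated with PLA2G2A at 0.941, rank 49. Over the 14 libraries without replicate 3 of shJarid2, r was 0.977 between PLA2G2A and CAMK2N1, 0.817 between PLA2G2A and PLA2G2F, 0.779 between PLA2G2A and PLA2G5, 0.869 between PLA2G2F and PLA2G5, and 0.969 between PLA2G2A and VWA5B1.

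The wider pathway was read from 6 lists with 109 genes, of which 55 passed the filter. The lists were chosen with earlier results of these data known, so their counts and shares are a description. Of the 55, 9 rose and 23 fell in shPALI1, 11 rose and 18 fell in shG9a, 22 rose and 18 fell in shJarid2, and 15 rose and 21 fell in shsuz12 (limma, adjusted over all 12715 genes). The 9 in shPALI1 include TNFAIP3, which passed the filter through those libraries alone. PTGES, among the 15 that rose in shsuz12, would not have passed it without the shsuz12 libraries. ALOXE3, which fell in every comparison, would not have passed it without the pLKO libraries. The calls of these genes there are a description. Without replicate 3 of shJarid2, 21 rose and 18 fell there, of which 37 had the same call with it, while the calls of PLA2G12A, PNPLA2 and LPCAT4 were lost and those of PTGES2 and MBOAT2 were gained. With all libraries the calls made up 58.2%, 52.7%, 72.7% and 65.5% of the 55 in shPALI1, shG9a, shJarid2 and shsuz12, beside 41.6%, 43.1%, 51% and 53.9% of all tested genes. Over all tested genes 16.5% rose and 25.1% fell in shPALI1, 18.4% and 24.7% in shG9a, 23.8% and 27.2% in shJarid2, and 21.1% and 32.8% in shsuz12. The median log2 change over the 55 was -0.12 in shPALI1, -0.00 in shG9a, 0.11 in shJarid2 and -0.02 in shsuz12, beside -0.052, -0.040, -0.038 and -0.078 over all tested genes.

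Of the other secreted enzymes and their receptor, PLA2G12A alone passed the filter among 7 genes. PLA2G12A, a distant member of the family, averaged 12.2 RPKM in shPALI1, 10.8 in shG9a, 10.2 in shJarid2, 9.12 in shsuz12 and 11.6 in pLKO, which puts it close to PLA2G2A in pLKO. It fell by 0.32 in shsuz12 (limma, adjusted p = 0.00094) and by 0.17 in shJarid2 (adjusted p = 0.044). The PLA2G12A call in shJarid2 was lost in 8 of 15 alternatives, without replicate 2 or 3 of shJarid2 or replicate 1 or 2 of pLKO among them (adjusted p 0.0124 to 0.204 over the alternatives), and the call in shsuz12 was lost with TPM (0.07, in a range of 0.000408 to 0.07). PLA2G3, the bee-venom-like enzyme, was under the filter with 0.823 RPKM in shG9a, against 0.207 in pLKO. PLA2R1, the receptor that binds and clears secreted phospholipases, and PLA2G1B, the pancreatic enzyme, were listed at 0 in all 15 libraries.

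Of 22 intracellular and related phospholipases A2, 15 were tested, with 2 rising and 8 falling in shPALI1, 2 and 3 in shG9a, 7 and 6 in shJarid2, and 6 and 3 in shsuz12. PLA2G4F, a cytosolic enzyme, fell by 1.54 in shPALI1 (limma, adjusted p = 1.5e-08) and rose by 1.07 in shJarid2 (3.5e-07) and 1.17 in shsuz12 (1.6e-07). PLA2G4A, the arachidonate-selective cytosolic enzyme, averaged 3.03 RPKM in shPALI1, 0.441 in shG9a, 0.376 in shJarid2, 0.972 in shsuz12 and 1.80 in pLKO. PLA2G4A rose by 0.54 in shPALI1 and fell by 0.95, 1.02 and 0.50 in shG9a, shJarid2 and shsuz12 (limma, adjusted p = 0.0026, 2.5e-05, 8.2e-06 and 0.0031). Its direction was thus opposite to the side on which PLA2G2A stood in shG9a, shJarid2 and shsuz12. PAFAH1B2, a subunit of the platelet-activating factor hydrolase, fell by 0.41, 0.81 and 1.32 in shPALI1, shG9a and shJarid2 (limma, adjusted p = 0.0008, 2.3e-06 and 1.3e-08). PNPLA8, a mitochondrial and peroxisomal enzyme, fell by 0.46 in shJarid2 and 1.11 in shsuz12 (0.00054 and 1.7e-07). PNPLA6 rose by 0.82 in shG9a, 0.64 in shJarid2 and 1.09 in shsuz12 (limma, adjusted p = 3.1e-05, 0.00017 and 1.3e-06) and fell by 0.41 in shPALI1 (0.0069). PLA2G7, which stands in this list although it is secreted, rose by 0.88 in shsuz12 (3.3e-05) and fell by 0.51 in shPALI1 (0.0039).

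Among the enzymes that turn arachidonic acid into eicosanoids, or break these down, 15 of 25 genes were tested, and 1 rose and 8 fell in shPALI1, 1 and 9 in shG9a, 5 and 5 in shJarid2, and 2 and 9 in shsuz12. The cyclooxygenases were hardly expressed: PTGS2 averaged at most 0.0365 RPKM in any group and PTGS1 at most 0.305. The 5-lipoxygenase gene ALOX5 averaged at most 0.0275 RPKM. ALOX12B, a lipoxygenase of the skin barrier, rose by 1.45 in shG9a (limma, adjusted p = 2.7e-07) and fell by 0.71, 0.88 and 0.52 in shPALI1, shJarid2 and shsuz12 (0.00019, 1.8e-05 and 0.0014). PTGR1, which acts on prostaglandins and leukotriene B4, rose by 1.32 in shJarid2 (limma, adjusted p = 1.1e-08) and fell by 0.45 in shG9a and 0.80 in shsuz12 (0.00033 and 1.1e-06). HPGD, which inactivates prostaglandins, fell by 0.53, 0.42, 0.50 and 0.82 in shPALI1, shG9a, shJarid2 and shsuz12 (limma, adjusted p = 0.00094, 0.0049, 0.001 and 1.4e-05). The prostaglandin exporter ABCC4 fell by 1.41 in shPALI1 and by 0.36 in shG9a (limma, adjusted p = 1.6e-06 and 0.044). The ABCC4 call in shG9a was near the threshold and was not among the results checked under the alternatives.

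Of 14 eicosanoid receptors 4 were tested. PTGER4, a prostaglandin E2 receptor, rose by 0.85 in shPALI1, 0.33 in shG9a and 1.47 in shsuz12 (limma, adjusted p = 1.6e-06, 0.0046 and 7e-09). Its mean was 0.925 RPKM in shJarid2 and 1.02 in pLKO. LTB4R, a leukotriene B4 receptor, fell by 1.36 in shJarid2 (1.3e-08), as did its neighbour LTB4R2 by 0.83 (0.00017), a gene that overlaps it. In shG9a LTB4R rose by 0.26 (0.018), a call lost in 3 of 15 alternatives (adjusted p 0.0076 to 0.0901). PTGFR, the prostaglandin F receptor, rose by 0.40 in shPALI1 (0.0045) and fell by 0.54, 0.82 and 0.56 in shG9a, shJarid2 and shsuz12 (0.00053, 8.5e-06 and 0.00024).

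Genes that handle the products of the reaction, lysophospholipids and free arachidonate, had 15 of 23 tested, with 2 rising and 7 falling in shPALI1, 5 and 3 in shG9a, 9 and 2 in shJarid2, and 6 and 6 in shsuz12. LPCAT3, which puts arachidonate back into lysophosphatidylcholine, averaged 28.6 RPKM in shPALI1, 51.5 in shG9a, 84.3 in shJarid2, 88.0 in shsuz12 and 40.2 in pLKO. LPCAT3 fell by 0.48 in shPALI1 and rose by 0.35, 1.05 and 1.11 in shG9a, shJarid2 and shsuz12 (limma, adjusted p = 5.2e-05, 0.00065, 1.9e-08 and 1.3e-08). ACSL3, which activates fatty acids, fell by 1.66 in shPALI1 and 0.50 in shsuz12 (9.9e-09 and 0.00047) and rose by 0.69 in shG9a and 0.49 in shJarid2 (4.2e-05 and 0.00056). LPAR3, a lysophosphatidic acid receptor, fell by 1.28 in shPALI1, 1.48 in shJarid2 and 0.35 in shsuz12 (6.2e-07, 9.7e-08 and 0.016). LPAR6, another one, rose by 1.27 in shPALI1, 0.52 in shJarid2 and 0.45 in shsuz12 (1.1e-06, 0.0017 and 0.0045).

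Genes of NF-kB signalling and the acute phase, a known setting of PLA2G2A induction, had 5 of 18 tested. NFKBIA, the inhibitor that NF-kB itself induces, rose by 0.40 in shPALI1, 0.29 in shG9a and 0.59 in shJarid2 (limma, adjusted p = 0.011, 0.049 and 0.00051). The NFKBIA call in shG9a was lost in 7 of 15 alternatives, without any 1 of the shG9a libraries or without replicate 2 or 3 of pLKO among them (adjusted p 0.00208 to 0.144), and that in shPALI1 without its replicate 2 (0.0536, in a range of 0.000649 to 0.0536). NFKB2, a subunit of the noncanonical pathway, fell by 0.50, 0.39 and 0.76 in shG9a, shJarid2 and shsuz12 (0.00016, 0.00087 and 2.4e-06). TNFAIP3, an inhibitor of NF-kB, averaged 1.23 RPKM in shPALI1, 0.564 in shG9a, 0.369 in shJarid2, 0.670 in shsuz12 and 0.526 in pLKO, with no test given since it reached 1 RPKM in shPALI1 alone. The acute-phase genes CRP and IL6 were listed at 0 in all 15 libraries, and SAA1 at 0 in the 12 knockdown libraries. Also under the filter, CXCL8 was at 0.389, 0.512 and 0.256 RPKM in shPALI1 and at 0 in every pLKO library. CCL20 was at 0.675, 0.432 and 0.606 RPKM in shPALI1 and at 0.0961, 0 and 0 in pLKO. Both were at 0 in every shJarid2 library.

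**Figure D5:**
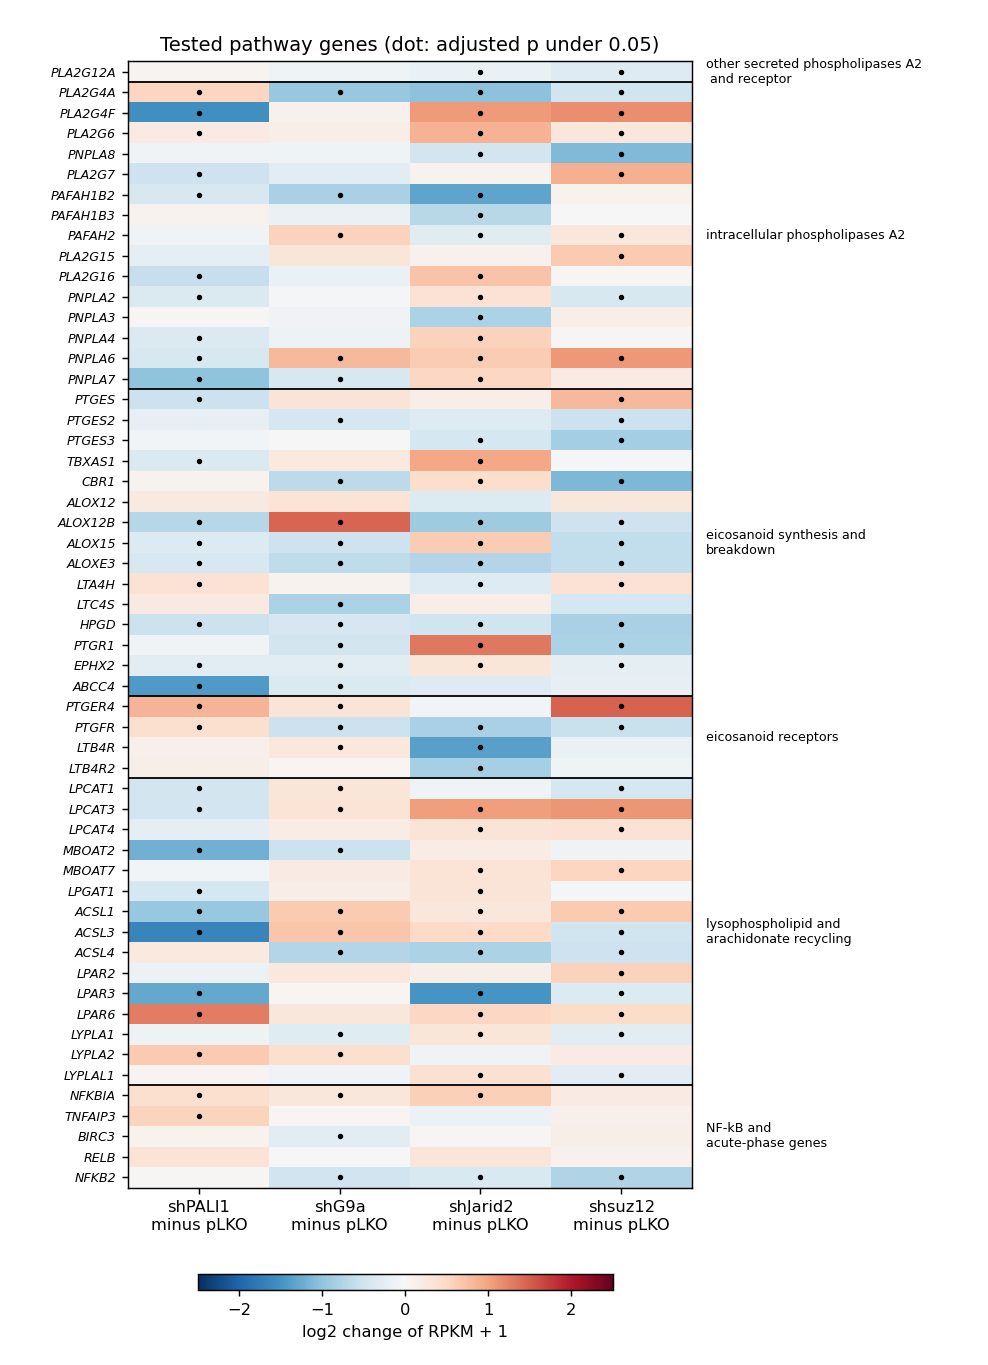
Log2 change of RPKM + 1 against pLKO (colour) for the 55 tested pathway genes (rows, grouped by list) in the 4 knockdowns (columns), where a dot marks a limma adjusted p under 0.05. LPCAT3 and PLA2G4F are below 0 in shPALI1 and above 1 in shJarid2 and shsuz12, and ALOX12B is above 0 in shG9a alone.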

How the data were processed

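RNA sequencing of 15 LNCaP libraries, 3 per group, was read from 1 table of RPKM values deposited by the authors, that is, reads per kilobase of gene model, scaled to library size. Reads were aligned with STAR to hg38, per the submitters' processing notes; its version is not given in the sources used here, and neither are the counter and the annotation. Of 26475 names 26443 carried values, and 2 names stood on 2 lines each.

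The genes of the cluster and the gene lists were chosen with earlier results of these data known. Groups were compared with limma 3.58.1 (R 4.3.3; two-sided moderated test with a trend) on log2(RPKM + 1), in 1 model of 15 libraries, for 12715 genes that had 3 or more libraries at 1 RPKM or above. Adjusted p values are Benjamini-Hochberg values over these genes, and 0.05 was the threshold. A log2 change on this scale understates the change of low genes. Cluster genes were described from the same model without the filter. The labels do not tell separate cultures from repeat libraries, so p values measure a spread that may be technical.

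In each list and comparison the genes that passed with the largest absolute change could be named, up to 4, and some further pathway genes were named for their known role after their values were seen. Depth was recovered from 2333 short RNA genes whose RPKM moves in steps of 1 read, and reads per gene from the shortest gene model that gives whole reads within 0.001. Intervals of reads cover counting error only. Coordinates came from GENCODE v29 and promoter windows from RefSeq (5 of the 6 genes matched). Tables were prepared with Python 3.11.15.

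Tested on simulated data over the same 12715 genes, the model recovered 67, 72, 74 and 57 of 100 genes changed 1.5-fold in shPALI1, shG9a, shJarid2 and shsuz12. Of 100 genes changed 2-fold it recovered 96, 91, 97 and 91 in the same order, with 9, 12, 13 and 8 false calls. The changed genes were drawn from those above about 2 RPKM in pLKO, so these numbers do not cover lower genes. Far fewer genes were changed in the simulation than were called in the data. Alternatives were other pseudocounts, filters and scalings, a model of the 6 libraries alone, the replicate number as a term, and leaving out each library. Every column was tied to a sample by its name.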

Additional observations from a re-analysis of the deposited data

How the results depend on the processing

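The alternatives were checked for 92 results of named genes. These were the tested flanking genes and, in each list and comparison, up to 4 genes that passed with the largest absolute change. Other results given above with a p value, such as those of hairpin targets, cell markers and ABCC4 in shG9a, were not among the 92. None of the 92 changed sign where it passed the threshold in the main model or in the alternative. A change of sign between values that both missed the threshold was not counted. The PLA2G5 difference in shsuz12, -0.03, changed sign with median ratio scaling (0.01), with TPM (0.04) and without replicate 3 of shsuz12 (0.04), with a range of -0.08 to 0.04 over leaving out 1 library. The number added before the log mattered most for the low genes. With 0.1 in place of 1, the PLA2G2F difference from pLKO was -0.62 in shPALI1, 1.94 in shG9a, 5.33 in shJarid2 and 0.62 in shsuz12, and that of PLA2G5 was -1.65 in shPALI1 and 1.63 in shJarid2. With 0.5, PLA2G2F was at 1.06 in shG9a and 4.01 in shJarid2, and PLA2G5 at -0.91 in shPALI1 and 1.29 in shJarid2. TPM keeps 1 as the added number on larger values, which acts like a smaller one, and gave -0.34, 1.49, 4.54 and 0.45 for PLA2G2F in shPALI1, shG9a, shJarid2 and shsuz12, and -1.19 and 1.43 for PLA2G5 in shPALI1 and shJarid2. The count of pathway genes that rose was 14 in shPALI1 without the filter (9 with it) and 19 in shG9a with TPM (11 with RPKM). Leaving out 1 library at a time, the PLA2G2A difference stayed at 0.07 to 0.36 in shPALI1, 1.33 to 1.59 in shG9a, 4.13 to 4.46 in shJarid2 and 2.3 to 2.56 in shsuz12. For these 92 results of named genes, 1303 of 1354 alternatives kept the call or its absence, 48 lost the call and 3 gained one. The labels do not say whether replicate numbers pair the samples. Of 30 pairs with the same number, 7 correlated above 0.1, with a range of -0.27 to 0.30. Pairs with unlike numbers were not compared, so these values do not settle the question. With the replicate block, limma called 5117, 5294, 6367 and 6696 genes in shPALI1, shG9a, shJarid2 and shsuz12, against 5290, 5477, 6486 and 6854 without it. PLA2G2C, PLA2G2D and PLA2G2E, with 2, 4 and 1 reads in all, are at the limit of the depth.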
